A study of Mus musculus with 20 samples.

Results

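The genes described here build and crosslink elastic fibres. The list holds 10 genes, chosen by name from a larger annotation of 18193 genes with a probe set of their own: Eln, Fbn1, Fbln1, Fbln2, Fbln5, Mfap4, Mfap5, Lox, Loxl1 and Ltbp2. Of these, 9 were measured and Fbn1 was not analysed here. An Affymetrix MOE430 2.0 array, which reads each transcript with sets of short probes, measured total RNA of the cardiac ventricle in each of 20 male C57BL/6J mice, an inbred strain, kept in a barrier facility. There were 10 young mice, aged 4 to 6 months, and 10 old mice, aged 25 to 28 months, and the labels name no treatment or transgene. The series' design text calls both ages young, and the sample titles, which say old or young, were followed. By its title the series asked about the loss of mitochondrial gene expression in ageing tissues, and the matrix genes were measured on the same arrays. The labels number the mice from 1 to 20, and those numbers name the arrays below.

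Elastic fibres give large arteries, heart valves and the walls of the heart their recoil. Cells secrete tropoelastin, the product of Eln, which is laid onto a scaffold of microfibrils made mostly of fibrillin-1 and microfibril-associated proteins. Fibulins and latent TGF-beta binding proteins bring the parts together, and lysyl oxidases, which are copper enzymes, oxidise lysine side chains so that elastin and collagen chains bond to one another. Fibroblasts, smooth muscle cells, valve cells and cells of the outer and inner lining of the heart make these proteins.

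All values are log2 GCRMA signals as deposited. On this scale a transcript that is not detected sits at a low value, which differs between probe sets, and array medians lay between 3.07 and 3.20. A probe set entered the gene test when it exceeded 4 in at least 10 of the 20 arrays. Eln, Fbln1, Fbln2, Fbln5, Mfap5 and Loxl1 passed, while Mfap4, Lox and Ltbp2 did not. A gene below 4 in all young arrays could pass only by being above 4 in all old ones, so the 6 tested genes are not a sample of the list.

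Of the 6 tested genes, 6 rose with age and 0 fell in limma's moderated test with Benjamini-Hochberg adjustment over all 9275 genes tested (unadjusted p under 0.05 for 0 falls as well). Over all genes, 11.2% were called higher and 7.49% lower in old. The median log2 difference of the 6 was 0.87, against 0.01 over all genes tested. After quantile normalization 8.73% of all genes were called higher, after median centring 12.3% and after centring on the median of the tested genes 8.86%, so that rises made up 43.2%, 68.6% and 41.9% of all calls against 59.9% as deposited. The last of these was chosen after seeing the data. In bulk tissue a change in the number of cells of a type and a change in RNA per cell cannot be told apart.

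The arrays were not all alike, and this bears on every result below. Myl7, the regulatory myosin light chain of atrial muscle, exceeded 10 in 7 old arrays (replicates 3, 4, 5, 6, 8, 9 and 10) and was at most 2.44 in the young ones. The protocol names ventricle as the tissue of all mice. Old replicates 1, 2 and 7 had Myl7 at 2.36, 8.27 and 6.58. The residuals left after subtracting each group's mean were also clustered and cut into 5 sets, a number fixed beforehand. Each set held 4 arrays, 2 old and 2 young. The labels name no batch. As a sign of RNA quality, control probe sets at the 3′ end exceeded those at the 5′ end by amounts that ran from 0.29 to 0.55 in old and from 0.26 to 0.51 in young arrays. No arrays held identical values, and their Spearman correlations ran from 0.950 to 0.995.

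With all arrays and the 5 sets as a block, 6 of the 6 genes rose, against 19.4% of all genes in that fit. The sets were cut from these same values and hold equal numbers of old and young arrays. The block therefore leaves each difference as it was and can change only its SE, so it is no independent check. With an index of atrial transcripts as a covariate (linear levels of Myl7 and Sln, each divided by its highest array and averaged), 1 of the 6 rose, Mfap5, against 2.81% of all genes. Without the 7 old arrays with Myl7 above 10, limma called 0 of the 6 at an adjusted p under 0.05, against 2.25% of all genes called higher. That last fit has 3 old arrays, which come from 2 of the sets. The median difference of the 6 genes was 0.69 with the index and 0.44 without the 7 arrays. With index and sets together 2 of the 6 rose (Fbln2 and Mfap5), against 4.36% of all genes. The part of atrial tissue in the result was not tested.

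**Figure D1:**
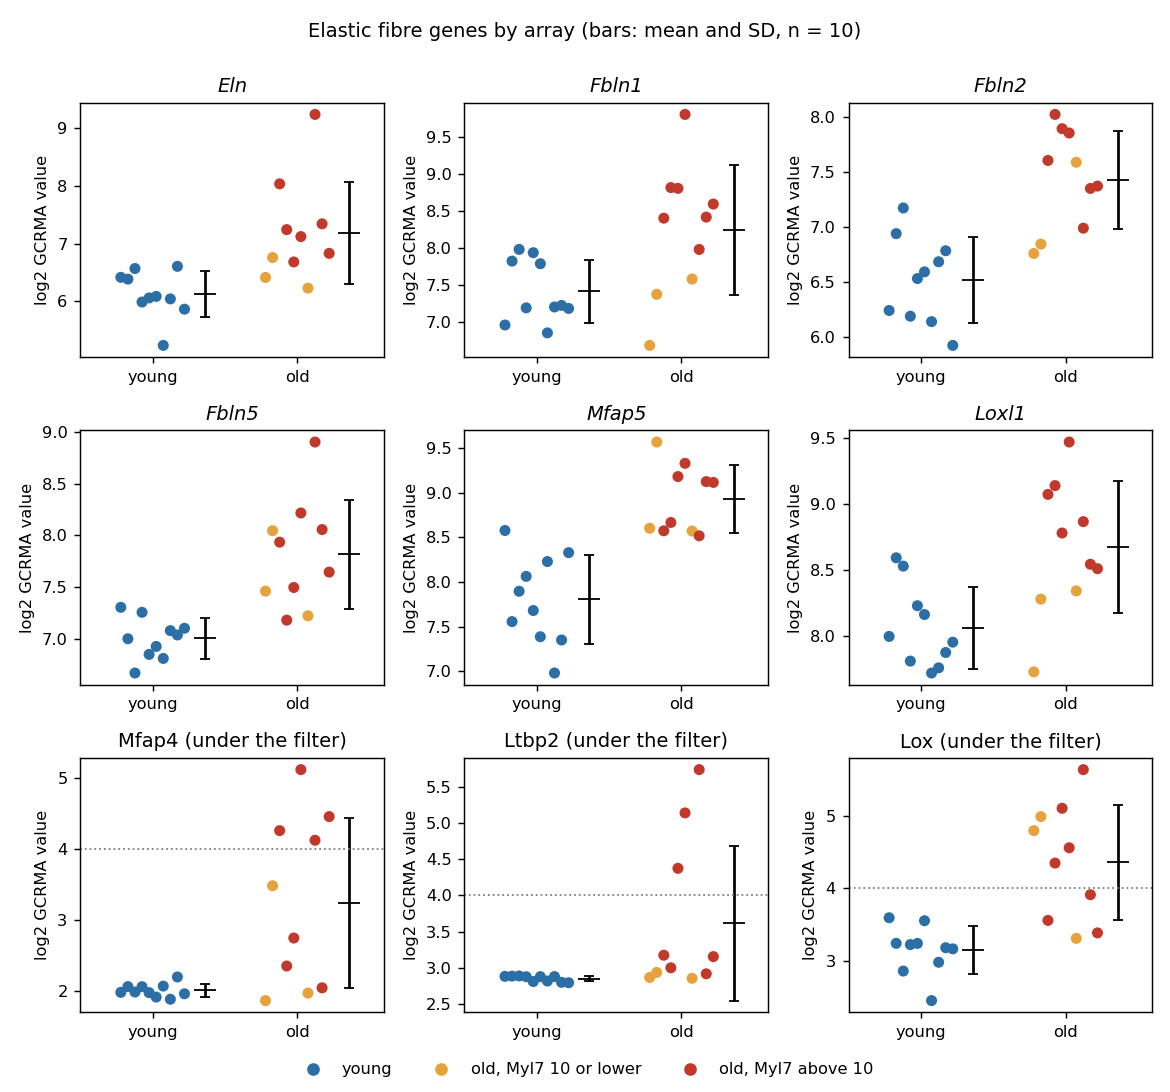
Log2 GCRMA value (vertical axes) of the 9 measured genes in each young and old array, with the group mean and SD (n = 10 each) beside the points. Red points are the 7 old arrays with Myl7 above 10 and orange points the other old arrays; the dotted line in the lowest row is the filter at 4. For Mfap5 the lowest old array is at 8.52, while for Fbln1 old replicate 1 is at 6.68, below every young array.

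Eln encodes tropoelastin, the soluble unit of elastin. Its values in old arrays were 6.23, 6.97 and 9.24 (lowest, median, highest), and in young arrays 5.23, 6.07 and 6.60. The groups overlapped, with 8 of 10 old arrays above every young one (8 or more were so for 4.44% of all genes), and old replicate 8 stood highest, followed by old replicate 3 at 8.03. Old hearts averaged 7.19 ± 0.89 and young hearts 6.12 ± 0.40 (SD, n = 10 per group), a rise of 1.07 ± 0.28 (SE, limma adjusted p = 0.0106), or 2.09-fold. The rise was 0.84 without old replicate 8 (adjusted p = 0.00688). In the 5 array sets the difference lay between 0.45 and 1.48. It was 0.80 ± 0.37 (SE) with the atrial index and 0.34 ± 0.23 (SE) without the 7 arrays, with limma adjusted p of 0.247 and 0.489. Of the 3 old arrays left in that fit, 1 exceeded the highest young array. Another Eln probe set, below 4 in 9 old and 10 young arrays, was at 2.76 ± 0.65 in old and 2.47 ± 0.04 in young, and its highest array was also old replicate 8, at 4.39.

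The microfibril protein gene Mfap5 was, of the 6 tested, the one whose difference had the narrowest range over the fits (0.94 to 1.28, the highest with the mean of its probe sets). It encodes a small glycoprotein (MAGP-2) that binds fibrillin and, through an RGD sequence, integrins. Its values were 8.52, 8.89 and 9.57 in old arrays and 6.98, 7.79 and 8.58 in young arrays. Of the old arrays, 7 of 10 lay above every young one, and 9 of 10 young arrays lay below every old one, so that the overlap came from young replicate 11. The rise was 1.12 ± 0.19 (SE, limma adjusted p = 0.000246), or 2.17-fold. The spread was 0.38 in old and 0.50 in young (SD), and Mfap5 was the only 1 of the 6 tested genes with a smaller SD in old than in young. The difference was 1.01 ± 0.25 with the index (SE, limma adjusted p = 0.0230). Leaving out the 7 arrays gave 1.11 ± 0.30 (SE), which missed the threshold (adjusted p = 0.0659). Against the 4 young arrays of their own sets, the 3 remaining old arrays differed by 0.94 ± 0.27 (SE, adjusted p = 0.123). A fainter Mfap5 probe set averaged 5.83 ± 0.36 in old hearts against 4.39 ± 0.63 in young hearts (SD, n = 10 per group), and there every old array was above every young one, as for 1.36% of all genes tested. A test of whether Mfap5 differs from the other members in how its value depends on the atrial arrays was not run.

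All 3 fibulin genes of the list rose with age in the fit on all arrays, and different arrays stood highest for each. Fibulins are glycoproteins with repeated calcium-binding EGF modules that link elastin to microfibrils and basement membranes. Fbln1 in old arrays was 6.68, 8.41 and 9.81, and in young arrays 6.85, 7.21 and 7.98. Old replicate 6 was highest, 6 old arrays exceeded every young one and old replicate 1 lay below every young one. Its rise was 0.84 ± 0.28 (SE, limma adjusted p = 0.0428), and the call was lost in 12 of 20 fits with a single array removed, with an adjusted p of up to 0.0779 (old replicate 5 removed). With the atrial index the Fbln1 difference was 0.08 ± 0.29 (SE), and without the 7 arrays it was −0.20 ± 0.26 (SE), with adjusted p of 0.921 and 0.739. The 3 old arrays left were at 6.68, 7.37 and 7.58, all below the highest young array. A second Fbln1 probe set differed by 0.86, from 5.85 ± 0.57 in young to 6.71 ± 0.81 in old (SD, n = 10 per group).

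Fbln2 encodes a large fibulin found in vessel walls and heart valves. Its old values were 6.76, 7.48 and 8.02 and its young values 5.92, 6.56 and 7.17, with 7 old arrays above every young one. The rise was 0.91 ± 0.18 (SE, limma adjusted p = 0.00114), or 1.88-fold, and lay between 0.55 and 1.31 in the 5 sets. The SE was 0.10 with the sets as a block. With the index it was 0.71 ± 0.23 (SE, adjusted p = 0.0866). Leaving the 7 arrays out gave 0.54 ± 0.24 (SE, adjusted p = 0.281). It passed the test with index and sets together (0.77, adjusted p = 0.00517) and for the 3 low-Myl7 old arrays against the 4 young arrays of their own sets (0.77 ± 0.10, SE, limma adjusted p = 0.0218). In that last fit it was the only 1 of the 6 called, against 1.67% of all genes called higher. These 2 fits were chosen after seeing the data.

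Fbln5 encodes the fibulin that carries tropoelastin and Loxl1 to microfibrils and also binds integrins. Its old values were 7.18, 7.79 and 8.90 and its young values 6.67, 7.02 and 7.30. Old replicate 8 was again highest, and 8 old arrays lay above every young one. Old hearts averaged 7.82 ± 0.53 and young hearts 7.002 ± 0.20 (SD, n = 10 per group), so the old arrays spread 2.66 times as widely. The rise was 0.81 ± 0.17 (SE, limma adjusted p = 0.00178), or 1.76-fold, and 0.69 without old replicate 8. With the index it was 0.67 ± 0.22 and without the 7 arrays 0.57 ± 0.16 (SE), both short of the threshold, with adjusted p of 0.0933 and 0.0819. Of the 3 old arrays left, 2 exceeded the highest young array.

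The upstream sequences of Fbln1 and Fbln5 are shown because these 2 family members both rose while their correlation from array to array was low once group means were removed (r = 0.02 over 20 arrays, and 0.39 with the array sets removed too). They are the 250 bases before the transcript start in RefSeq's GRCm38.p6 table, which held windows for 5 of the 10 genes, read 5′ to 3′ on the gene's strand. Fbln1 is at chr15:85205699-85205948 on the plus strand and Fbln5 at chr12:101819120-101819369 on the minus strand. Capitals mark matches on either strand to the GC box GGGCGG, the TATA box TATAAA or the AP-1 site TGANTCA. These motifs are found in 32.7%, 12.4% and 6.75% of the 32851 windows of this length in the table, and none of the marked matches overlap.
Fbln1: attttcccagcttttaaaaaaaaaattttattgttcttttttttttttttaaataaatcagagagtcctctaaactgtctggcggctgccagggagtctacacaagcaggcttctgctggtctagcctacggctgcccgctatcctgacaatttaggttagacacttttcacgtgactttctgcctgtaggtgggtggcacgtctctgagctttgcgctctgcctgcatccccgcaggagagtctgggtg
Fbln5: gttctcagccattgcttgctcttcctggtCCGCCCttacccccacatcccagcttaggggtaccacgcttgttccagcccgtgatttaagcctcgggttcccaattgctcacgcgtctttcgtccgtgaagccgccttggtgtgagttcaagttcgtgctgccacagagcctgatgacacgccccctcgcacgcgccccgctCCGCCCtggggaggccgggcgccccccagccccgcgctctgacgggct
The Fbln5 window holds 2 GC boxes, 65.2% G and C and 21 CpG pairs. The Fbln1 window holds 0 matches to the 3 motifs, 46.4% G and C and 7 CpG pairs, beside medians of 52.4% and 6 over all windows. A match is a run of letters and not a measured binding site.

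Loxl1 encodes the lysyl oxidase that works mainly on elastin and is tethered by fibulin-5. Its old values were 7.73, 8.66 and 9.47 and its young values 7.72, 7.98 and 8.59, so the groups overlapped over much of their range and 5 old arrays lay above every young one. The rise was 0.61 ± 0.18 (SE, limma adjusted p = 0.0182), or 1.53-fold. It was 0.30 ± 0.21 with the index and 0.05 ± 0.20 without the 7 arrays (SE), with adjusted p of 0.472 and 0.916. All 3 low-Myl7 old arrays were below the highest young array. A fainter Loxl1 probe set exceeded 4 in 2 old hearts and 0 young hearts.

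Lox, the founding lysyl oxidase of elastin and collagen, lay close to the floor. Its brighter probe set was 3.31, 4.45 and 5.64 in old arrays and 2.45, 3.20 and 3.59 in young arrays, with 6 old arrays and 0 young arrays over 4. Old replicate 8 was again the highest, and 7 old arrays exceeded every young one. Lox did not enter the main test. In a limma fit of all 18193 genes with no filter, in which 7.15% were called higher, its difference was 1.21 ± 0.26 (SE, adjusted p = 0.0070). Without the 7 arrays the difference was 1.21 ± 0.31 (SE, adjusted p = 0.0963), and of the 3 old arrays kept, replicates 1 and 2 were at 4.79 and 4.99, above all young arrays, and replicate 7 at 3.31 was not. Another Lox probe set averaged 3.60 ± 0.76 in old hearts against 2.92 ± 0.09 in young hearts (SD, n = 10 per group), and the remaining one was at most 2.29 in all arrays.

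Mfap4 and Ltbp2 were under 4 in all young hearts and above 4 in a few old ones. Mfap4 encodes a fibrinogen-related protein that binds elastin and fibrillin. It was 1.87, 3.12 and 5.12 in old arrays and between 1.89 and 2.20 in young ones, above 4 in 4 old arrays (replicates 3, 6, 8 and 10), all with Myl7 above 10. In the fit with no filter its difference was 1.23 ± 0.37 (SE, adjusted p = 0.0331), and 4 of 20 fits with a single array removed missed the threshold (old replicates 6 and 8, young replicates 12 and 13, adjusted p = 0.0557, 0.0572, 0.0504 and 0.0520). Without the 7 arrays it was 0.43 ± 0.25 (SE, adjusted p = 0.272). Ltbp2 encodes a fibrillin-binding protein that, unlike its relatives, does not hold latent TGF-beta. It was 2.86, 3.08 and 5.73 in old arrays and 2.80 to 2.89 in young ones, above 4 in replicates 5, 6 and 8 of the old group. Its difference in the same fit was 0.76 ± 0.33 (SE, adjusted p = 0.0814). Leaving out the 7 arrays gave 0.03 ± 0.03 (SE, adjusted p = 0.415).

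**Figure D2:**
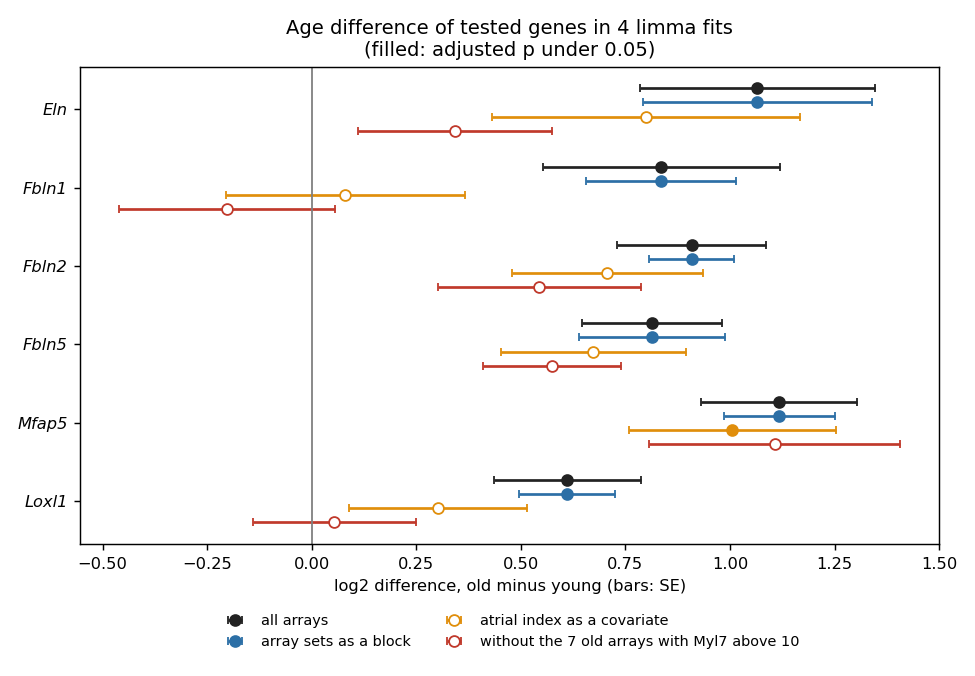
Log2 difference, old minus young, of the 6 tested genes (horizontal axis; bars are SE) in 4 limma fits: all arrays, array sets as a block, atrial index as a covariate, and with the 7 old arrays of high Myl7 removed. Filled points have an adjusted p under 0.05. All 6 are filled in the first and second fits, Mfap5 alone (1.01) in the third and none in the fourth, where Fbln1 is at −0.20.

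The members did not move as one block from array to array. Group means were removed first, and the 15 pairs of tested genes were then correlated over 20 arrays, with permutation within the groups (100000 resamples) and adjustment over the 15 pairs. Arrays were permuted without regard to their sets, so these p-values take in shared set effects. No p was computed with the sets removed. Fbln1 and Loxl1 went together most closely (Pearson r = 0.88, permutation adjusted p = 0.00015, where the unadjusted p is the smallest these resamples allow; Spearman rho = 0.80, adjusted p = 0.00075). The relation was r = 0.75 without the 2 arrays farthest from the median for Fbln1. It was 0.85 over all 20 arrays with the array sets removed as well. Fbln1 and Fbln2 were related too (r = 0.74, permutation adjusted p = 0.00210; rho = 0.80, adjusted p = 0.00075), and r was 0.70 without the 2 farthest arrays and 0.47 with the sets removed. Fbln2 and Loxl1 reached r = 0.70 (permutation adjusted p = 0.00485; rho = 0.65, adjusted p = 0.0162), but r was 0.11 with the sets removed, so that relation does not hold within sets.

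Eln and Fbln5 were the other pair under the threshold by Pearson r. Their r was 0.68 (permutation adjusted p = 0.0372), with rho = 0.43 (adjusted p = 0.259). It fell to 0.37 without the 2 arrays farthest from the median for Eln, so the relation rests on those arrays. Within old arrays r was 0.78 and within young arrays 0.10. With the sets removed r was 0.88, a value that includes the 2 farthest arrays. Eln and Loxl1 had r = 0.49 (permutation adjusted p = 0.196) and rho = 0.64 (adjusted p = 0.0162). Fbln5 and Fbln1 had r = 0.02 (0.13 within old and −0.57 within young arrays), and Mfap5 had r between −0.32 and 0.14 with the other 5 genes. With the sets removed, Mfap5 had r = 0.68 with Loxl1 and 0.55 with Fbln1. Arrays share tissue composition and set, so these values describe the arrays and not a link between the genes.

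**Figure D3:**
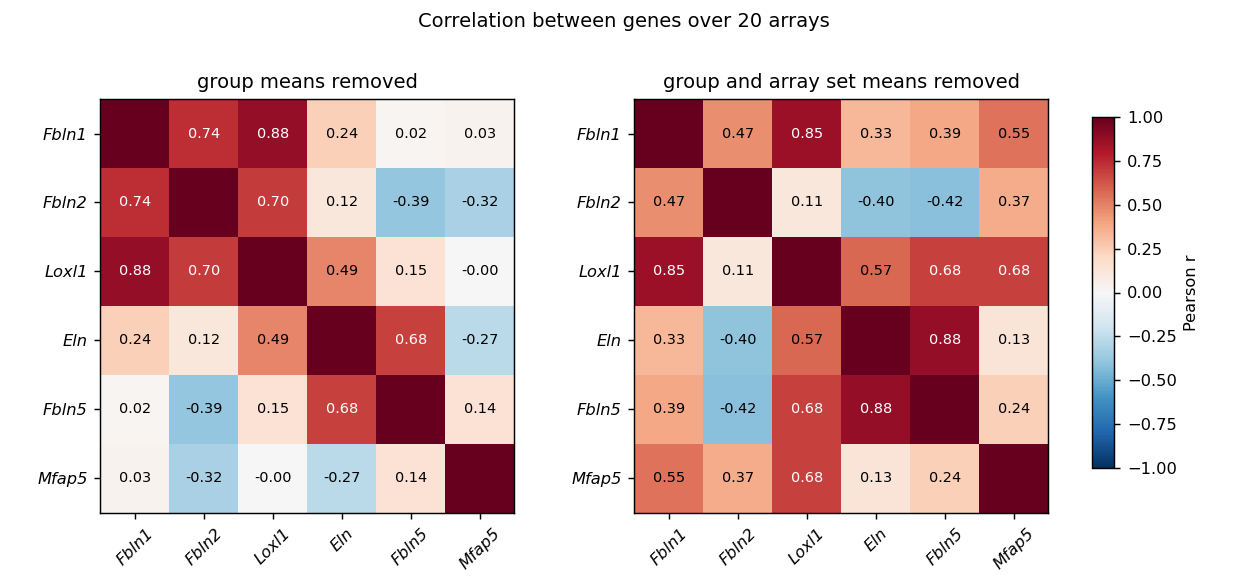
Pearson r between the 6 tested genes over 20 arrays (colour scale from −1 to 1), with group means removed on the left and group and array set means removed on the right. Fbln1, Fbln2 and Loxl1 form a block on the left (0.70 to 0.88), Eln and Fbln5 a pair (0.68), and Mfap5 has no r above 0.14 there.

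Of the 9269 other tested genes, the 6 whose deviations followed the mean deviation of the 6 members most closely over the 20 arrays were Ccdc80 (r = 0.91, rho = 0.80), Ecm1 (0.91 and 0.89), Igfbp4 (0.89 and 0.88), Rcn3 (0.87 and 0.71), C1ra (0.87 and 0.72) and Bgn (0.86 and 0.83). Without old replicates 1 and 6, the arrays farthest from the median, their r lay between 0.70 and 0.87, and with the sets removed between 0.85 and 0.95. They were picked for this likeness. In the fit on all arrays each was higher in old, from 0.84 for Rcn3 to 1.81 for Ecm1. With the 7 high-Myl7 arrays left out, Ecm1 was called (0.87, limma adjusted p = 0.0384) and the other 5 were not, from 0.11 for Rcn3 to 0.59 for Bgn.

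Marker lists of other tissues and cells differed in how they changed with age. For the counts below, 11.2% of all tested genes were called higher and 7.49% lower, and 2.25% higher without the 7 arrays. Atrial markers summed, on the linear scale, to 16179 to 104803 in old and 13262 to 18673 in young arrays, with 4 of 5 tested members of the 10 higher in old. Valve and cartilage-like markers summed to 549 to 2157 in old and 212 to 376 in young, with 7 of 8 tested members of 12 higher, while Acan, Col2a1 and Hapln1 were under 4 in all arrays. Of the tested ones, Comp was above 4 in 10 old and 0 young arrays, and Fmod in 10 old and 1 young. Both passed the filter through the old arrays, which favours a rise in them. Without the 7 arrays 6 of the 8 valve markers were called, with a median difference of 1.83 against 2.11 with all arrays. For the low-Myl7 old arrays against young arrays of their own sets, 2 of the 8 were called, with a median of 1.55. In that fit 1.67% of all genes were called higher. Fibroblast markers summed to 9318 to 18012 in old and 7793 to 11699 in young, with 7 of 11 tested members of 12 higher. Their median difference was 0.55, and 0.18 without the 7 arrays, where 0 of the 11 were called. Mesothelial markers summed to 96.1 to 769 in old and 86.9 to 102 in young arrays. Of the 10, Wt1 was the only tested one and was not called, and the other 9 were under 4 in all young arrays.

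Smooth muscle and pericyte markers summed to 8579 to 19972 in old and 8456 to 12005 in young. Of 11 tested members of 12, 1 was higher (Acta2) and 1 lower (Kcnj8), near the shares of all genes (11.2% and 7.49%). Endothelial markers had 3 of 9 tested members higher and summed to 2742 to 5422 in old and 2137 to 2815 in young arrays. Macrophage markers had 8 of 9 higher, with sums of 4551 to 9007 in old and 2844 to 4420 in young arrays, which did not overlap. Without the 7 arrays 4 of the 9 macrophage markers were called, with a median difference of 0.73 against 0.79. Of the ventricular muscle markers 0 of 8 were higher or lower. Adipocyte markers, of which 5 of the 7 listed were measured and 0 tested, summed to 29.7 to 6364 in old and 30.1 to 34.7 in young. Old replicate 8, the highest array for Eln, Fbln5, Lox and Ltbp2, was also the highest of the 20 arrays for the summed smooth muscle (19972), mesothelial (769) and adipocyte (6364) markers. Old replicate 3, next highest for Eln, was next highest for smooth muscle (19251). Old replicate 6, highest for Fbln1, Loxl1 and Mfap4, was highest for the atrial, valve and fibroblast sums, while old replicate 10 had the highest atrial index, with Myl7 at 14.6 against 14.3. The atrial sum includes Clu, which was already at 14.02 ± 0.14 in young hearts (SD, n = 10). The part of these cells and tissues in the results was not tested.

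Other genes of elastic fibre assembly, crosslinking, breakdown and adhesion were taken from 5 lists with 71 genes. Of these 64 were measured and 45 tested, and 22 rose and 1 fell, against 11.2% and 7.49% of all genes. Their median difference was 0.35. With the atrial index 6 rose (2.81% of all genes) and 0 fell. Without the 7 arrays 5 rose (2.25% of all genes) and 0 fell (limma, with 0 and 2 falls at an unadjusted p under 0.05 in these fits).

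Among 12 tested structural genes 6 rose, against 11.2% of all genes. Vcan, which encodes versican, a hyaluronan-binding proteoglycan that attaches to fibrillin, rose by 1.87 ± 0.24 (SE, limma adjusted p = 1.14e-05), from 5.26 ± 0.73 in young to 7.12 ± 0.37 in old hearts (SD, n = 10 per group). Efemp1, the gene of fibulin-3, rose by 1.56 ± 0.21 (SE, adjusted p = 1.94e-05). For both, no young array reached the lowest old array, against 1.36% of all genes tested, and both passed without the 7 arrays (1.89 and 1.25, adjusted p = 0.0187 and 0.0406). Against the young arrays of their own sets, the same 3 old arrays differed by 1.56 and 1.05 and missed the threshold (adjusted p = 0.0702 and 0.130). Ltbp3, which stores latent TGF-beta, rose by 0.57 and Emilin2, an elastin-associated glycoprotein, by 0.47, and neither was called without the 7 arrays (0.15 and 0.19). Emilin2 also missed the threshold after quantile normalization (adjusted p = 0.0504).

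Of 9 assembly and processing genes 4 rose, against 11.2% of all genes. Fn1, encoding fibronectin, on which cells build microfibrils, averaged 7.63 ± 0.81 in old hearts against 6.12 ± 0.18 in young hearts (SD, n = 10 per group), with no overlap between the groups and a rise of 1.51 ± 0.24 (SE, limma adjusted p = 0.000177). It was 0.96 without the 7 arrays (adjusted p = 0.00230). Pcolce and Pcolce2, enhancers of procollagen processing, rose by 0.63 and 0.62, and Fkbp14, a prolyl isomerase of the endoplasmic reticulum, by 0.41. These 3 were at 0.36, 0.40 and 0.42 without the 7 arrays, with adjusted p of 0.321, 0.366 and 0.294.

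Of 8 other crosslinking genes 5 rose and 1 fell, against 11.2% and 7.49% of all genes. F13a1, the transglutaminase subunit of factor XIII, which macrophages also make, rose by 1.01 ± 0.09 (SE, limma adjusted p = 3.16e-07), with no overlap between the groups. It was at 1.11 without the 7 arrays (adjusted p = 0.000330). Loxl3, a further lysyl oxidase, rose by 0.47, and Atp7a, the copper transporter that loads lysyl oxidases, by 0.31. Atp7a was not called with the mean of its probe sets (0.21, adjusted p = 0.197) or after quantile normalization (0.21, adjusted p = 0.0799). Pxdn, peroxidasin, which crosslinks collagen IV of basement membranes, fell by 0.30 (adjusted p = 0.0296) and was not called with median centring (adjusted p = 0.0657). None of Loxl3, Atp7a and Pxdn was called without the 7 arrays, where Atp7a was at 0.35 and Pxdn at −0.30, as large as with all arrays, and Loxl3 at 0.22.

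Of 8 tested elastin-degrading enzymes and inhibitors 6 rose, against 11.2% of all genes. The inhibitor genes Timp3 and Timp2 rose by 0.93 ± 0.11 and 0.86 ± 0.14 (SE, limma adjusted p = 7.47e-06 and 0.000165). The elastolytic protease gene Ctss rose by 0.99 and the membrane metalloproteinase gene Mmp14 by 0.78. Without the 7 arrays Timp3 was at 0.59 (adjusted p = 0.0187; 0.0909 against the young arrays of their own sets), Ctss at 0.81 (adjusted p = 0.0595), Timp2 at 0.44 (adjusted p = 0.187) and Mmp14 at 0.30 (adjusted p = 0.481). The list holds enzymes and inhibitors alike.

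Of 8 tested receptor genes 1 rose, a share near the 11.2% of all genes. Itgav, the integrin αV subunit that binds RGD sites, was higher by 0.51 ± 0.12 (SE, limma adjusted p = 0.00590). It was at 0.36 without the 7 arrays (adjusted p = 0.309). Glb1, whose splice form is the elastin-binding protein, was at 0.27 (adjusted p = 0.0897), Itgb5 at 0.19 (adjusted p = 0.248) and Ctsa at 0.25 (adjusted p = 0.248). Glb1 and Ctsa passed with the array sets as a block (adjusted p = 0.0165 and 0.0184), at the same differences with a smaller SE.

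**Figure D4:**
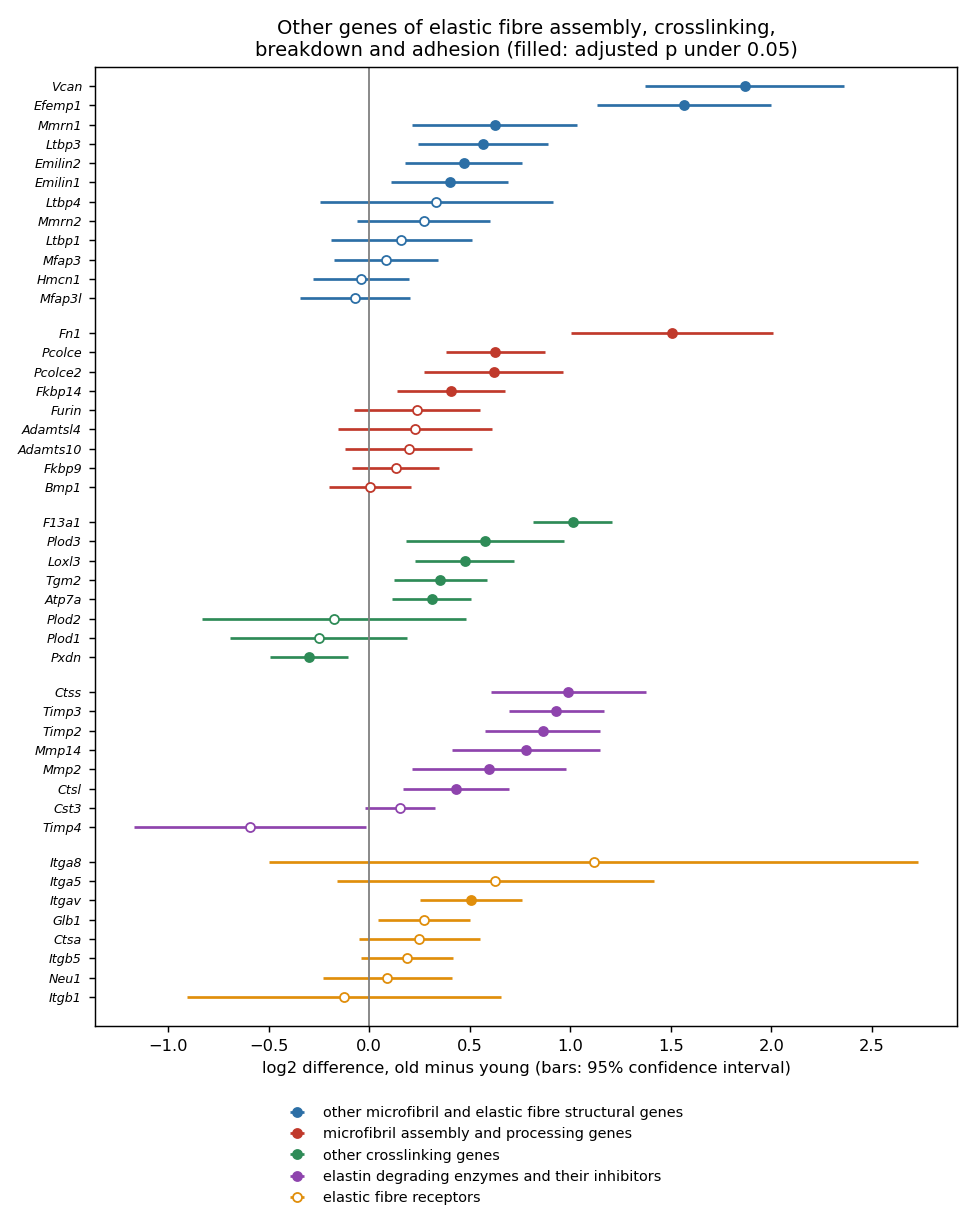
Log2 difference, old minus young (horizontal axis; bars are 95% confidence intervals), of the 45 tested genes of the 5 lists, coloured by list and sorted by size within it. Filled points have an adjusted p under 0.05 in the fit on all arrays; Vcan (1.87), Efemp1 (1.56) and Fn1 (1.51) lie farthest to the right among the filled ones, and Pxdn (−0.30) is the filled point below 0.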

How the data were processed

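The deposited table holds log2 values for 45101 probe sets and 20 arrays, made by the authors with GCRMA per the submitters' processing notes; the sources used here give no version, and the range of the values was taken to show a log2 scale (0.98 to 16.0). Gene names came from the platform annotation, updated by gene identifier to a GRCm38.p6 gene table (34741 of 34945 single-gene probe sets matched); 932 probe sets with several genes were left out. A gene was its passing probe set (above 4 in at least 10 arrays) with the highest mean. Groups were compared with limma 3.58.1 in R 4.3.3 with no covariate, an adjusted p under 0.05 being called; the code was tested on simulated data. The members, lists, named genes (all members, the 4 smallest p per list, and the 6 genes most like the members) and the fits for atrial transcripts and array sets were chosen with earlier results of these data known. Sets came from average-linkage clustering of residuals, with their number fixed at 5. The number of arrays limits the precision. In the main fit the limma p-values set a difference against the spread between arrays, 1 per mouse. That spread also holds differences between array sets and in atrial transcripts.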

Additional observations from a re-analysis of the deposited data

How the results depend on the processing

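All 6 tested genes kept their calls after quantile normalization, median centring, a filter at 6, averaging of probe sets and a robust, trended variance. They also kept them with the array set block, which cannot change the differences and is no independent check. With no filter 7 of 9 were called, Fbln1 narrowly missing (adjusted p = 0.0501), and after centring on the median of the tested genes, chosen after seeing the data, 5 of 6, again without Fbln1 (adjusted p = 0.0511). The counts of members higher in old were 1 with the atrial index, 0 without the 7 arrays, 2 with index and sets together (Fbln2 and Mfap5) and 1 for the low-Myl7 arrays against young arrays of their own sets; those of the other elastic fibre genes were 6, 5, 6 and 2. Genes of that list lower in old numbered 0 in these 4 fits and with median centring, and 2 with no filter. The causes were not tested; these fits hold fewer or partly collinear arrays. The median member difference was 0.44 without the 7 arrays and 0.31 within their sets. Among the genes named, signs turned without the 7 arrays for Fbln1 (−0.20), Itgb5 (−0.098; −0.072 within sets) and Ctsa (−0.086), none called. Leaving out 1 array gave 5 to 6 members higher and 0 lower, and 17 to 22 other genes higher and 0 to 1 lower. Of all calls 59.9% were rises as deposited and 43.2% after quantile normalization. No paired analysis was possible because the groups share no replicate number.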

Other observations

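Of the 71 other elastic fibre genes, 19 were measured but stayed under the filter. Timp1, Itgb3, Npnt, Thsd4 and Pcsk5 exceeded 4 in some old arrays and no young array, Thsd4 and Pcsk5 in 1 old array each. The share of all genes under the filter that did so is not given here, so nothing particular to this list is read from it. The genes described were chosen after their values were seen. Timp1, an inhibitor of metalloproteinases, averaged 5.76 ± 0.97 in old hearts against 2.42 ± 0.17 in young hearts (SD, n = 10 per group), and exceeded 4 in 9 old arrays. In the limma fit with no filter its adjusted p was 2.24e-06, and with the 7 old arrays of high Myl7 removed it was 0.00170, with a difference of 2.80. Itgb3, the integrin β3 subunit of platelets and vessels, ran from 2.00 to 7.28 in old arrays and stayed at 1.99 to 2.02 in young ones, above 4 in 3 old arrays. Npnt, nephronectin, above 4 in 3 old arrays, did not pass (adjusted p = 0.180). Ctsk, a cathepsin that degrades elastin and collagen, averaged 4.23 ± 0.65 in old hearts against 3.44 ± 0.32 in young hearts (SD, n = 10 per group; limma adjusted p = 0.0276). Its difference was 0.20 without the 7 arrays (adjusted p = 0.542). Fbn2, the second fibrillin gene, was under 4 in all 20 arrays, and so were Mfap2, Fbln7, Mmp12 and Elane.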
